A study of Gallus gallus with 4 samples.

Results

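The splicing factors and RNA-binding regulators described here are the genes of the spliceosome and of its main families of RNA-binding helpers that could be read on the Affymetrix GeneChip Chicken Genome Array. They were chosen by symbol, under a rule made with earlier results of these data known. It takes every gene whose symbol in the platform annotation begins with SRSF, HNRNP, SF3A, SF3B, SNRP, PRPF, MBNL or CELF, or with LSM and a digit. It also takes the named genes U2AF1, U2AF2, TRA2A, TRA2B, PTBP1, PTBP2 and PTBP3. This gave 77 genes of the 13009 that a probe set with 1 symbol names on the array, read by 207 probe sets. Of these, 68 genes had a probe set over the brightness filter and are among the 8026 genes tested. The 9 that did not pass were SNRPB2, SNRPF, PRPF4, LSM11, PTBP3, CELF3, CELF4, CELF5 and CELF6. Each gene is given by its brightest probe set unless another is named.

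The study used DT40, a chicken line from a B cell lymphoma. Its gene for Arp6 (ACTR6), a nuclear actin-related protein of the complex that deposits histone H2A.Z, was disrupted by histidinol and puromycin resistance cassettes, and Arp6 came instead from a transgene that tetracycline switches off. Polyadenylated RNA from a culture without the drug (day 0) and from cultures kept in 2 ug/ml of it for 2, 4 and 6 days was read on 1 array per day. The study's title concerns the position of chromosome territories in the nucleus. The disruption and the transgene are shared by all 4 arrays, and Arp6, tetracycline and time in culture change together, so their parts cannot be told apart. Each ratio sets 1 array against 1 other without replicates, and no replicate error can be given.

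Splicing removes introns from a new transcript in a large particle, the spliceosome, that assembles on each intron from small nuclear ribonucleoproteins (snRNPs) and many further proteins. Each snRNP holds an RNA in a ring of Sm or LSm proteins, and the U2 snRNP with the U2AF proteins marks the branch point and the 3′ end of the intron. Which exons are kept is set by regulators that bind the transcript: SR proteins mostly favour an exon, hnRNP and polypyrimidine tract proteins often suppress it, and MBNL and CELF proteins, best known from muscle and brain and from myotonic dystrophy, often pull the same exons in opposite directions. The array was used here to read the amount of transcript at each probe set, and exon use was not analysed.

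Signals were scaled so that the kept probe sets of each array had the same median, by factors between 0.859 and 1.19, and background is the level that 95% of the 59 unspiked control probe sets did not exceed, 25.4, 24.9, 32.1 and 45.9 at days 0, 2, 4 and 6. Ratios are thus relative to the median gene, and a shift shared by most genes would not show. Over all tested genes the median log2 ratio at days 2, 4 and 6 was near 0 with this scaling, -0.17, -0.24 and -0.48 in the values as deposited, and -0.0083, 0.30 and 0.16 with spike-in scaling (to the median of 27 spike-in control probe sets). The brightest ACTR6 probe set had scaled signals of 7002, 318, 331 and 383 at days 0, 2, 4 and 6, so the targeted gene followed the labels. Of 8 B lineage markers 7 had a probe set, all over the filter, and their summed signal was 9937, 9088, 8126 and 6460 at the 4 days. IRF4 was the largest part of that sum, with 4302 at day 6, against 3858 at day 0, while BTK was 16.4-fold, CD72 12.1-fold and CD79B 5.54-fold lower at day 6 and BCL6, under background, at least 5.28-fold lower. The fibroblast list was dim: 0 of 4 fibroblast markers passed the filter. Of 4 T cell markers 2 passed, with a summed signal of 2430, 2077, 1275 and 978, nearly all of it CD3D, while CD3E and CD4 were below background on every array. Of the erythroid markers 1 of 4 had a probe set, and of the macrophage markers 2 of 3 passed the filter, with a summed signal between 107 and 167 over all 3. The part of these markers in the results below was not tested, and fewer cells of a type and less RNA per cell cannot be told apart.

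Most splicing genes stayed close to their day 0 level and few left the 2-fold range. At day 2, 0 members were at least 2-fold higher (2.42% of all tested genes were) and 1 was at least 2-fold lower (2.97% of all genes), the U2 snRNP gene SF3B5. At day 4, 2 members were 2-fold higher (5.77% of all genes), MBNL2 and SRSF4, and 1 was 2-fold lower (5.12% of all genes), LSM10. At day 6, 1 was 2-fold higher (8.48% of all genes), MBNL2, and 3 were 2-fold lower (8.35% of all genes), CELF2, SNRPD1 and LSM12. Over the 3 later days together 7 of the 68 members, 10.3%, left the 2-fold range on at least 1 day, against 23.8% of all tested genes. The members are brighter than most tested genes, and this comparison is not matched for brightness. With the brightness filter raised to the 75th percentile, 0 of 65 members were 2-fold higher at day 6 (4.22% of all genes). With that filter 3 members, 4.62%, were 2-fold lower that day, against 6.08% of all genes. At 1.5-fold the members were 3 higher (7.53% of all genes) and 2 lower (9.46%) at day 2, 5 higher (14.3%) and 6 lower (13.8%) at day 4, and 2 higher (17.4%) and 12 lower (18.1%) at day 6. The 2-fold counts move with the scaling: with the deposited values unscaled 16 members, 23.5%, were 2-fold lower at day 6, against 20.0% of all genes, and with spike-in scaling 1 was, 1.47%, against 6.37% of all genes.

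With the main scaling and floor, MBNL2 stood furthest above day 0 of all members on each later day. Its place at day 2 depended on the processing. With quantile normalization SRSF4 stood above it that day (0.85 against 0.84 on the log2 scale). With the floor at the 60th percentile its day 2 log2 ratio was 0.65, below the 0.73 of LSM14B, whose signals lay above that floor. MBNL2, one of the muscleblind proteins that bind CUG-like repeats and steer exon choice, had scaled signals of 37.1, 68.0, 152 and 285 at days 0, 2, 4 and 6. Each array was higher than the one before it, and the ratio to day 0 was 1.83-fold, 4.09-fold and 7.69-fold. Among the 8026 tested genes its log2 ratio ranked 278, 46 and 12 from the top at days 2, 4 and 6. Its day 0 signal was above background but below the highest unspiked control of that array, 38.1, so the size of the fold rests on a dim starting value.

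The other kept probe sets of MBNL2 gave the same direction. The second read 14.5, 40.9, 143 and 194 at days 0, 2, 4 and 6, and the third read 9.76, 41.3, 42.0 and 229. Each was below background at day 0 alone, which makes their folds lower bounds: at least 1.61-fold, 5.62-fold and 7.62-fold for the second, and at least 1.62-fold, 1.65-fold and 9.0-fold for the third. They differ at day 4, where the third had not moved beyond its day 2 signal. The brightness filter takes the mean over all 4 arrays, so probe sets this dim at day 0 passed through their later arrays. Their shared direction is thus not independent support. Of the 4 MBNL2 probe sets that did not pass the filter, 1 read 2.40, 29.6, 41.7 and 114, another was above background at day 4 only, and the remaining 2 were below background on all 4 arrays.

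**Figure D1:**
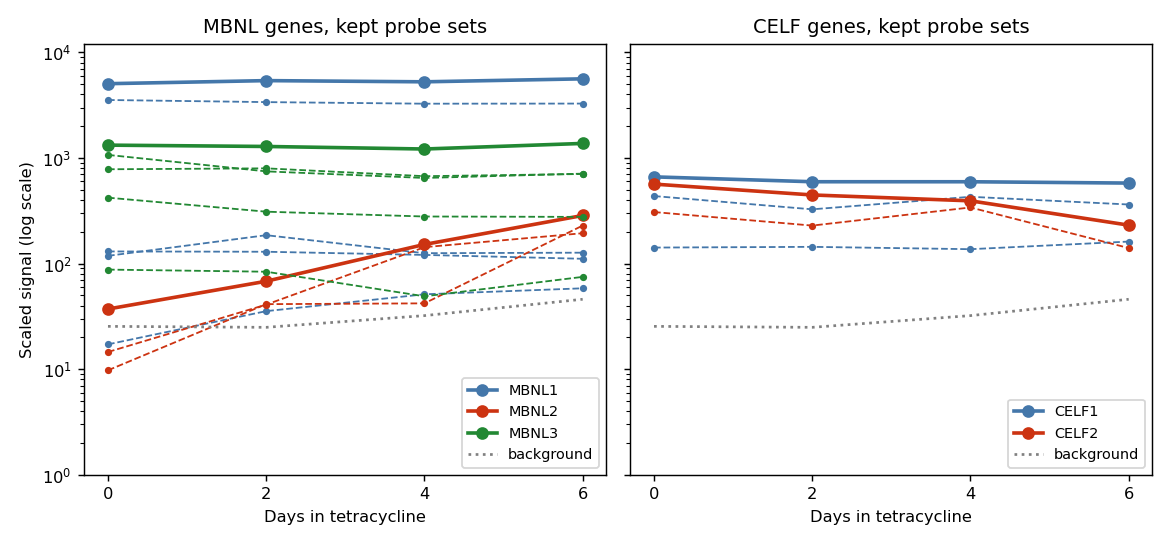
Scaled signal (log axis) of every kept probe set of MBNL1, MBNL2 and MBNL3 (left) and CELF1 and CELF2 (right) at days 0, 2, 4 and 6, 1 array each. Solid lines are the brightest probe set of a gene, broken lines its others, and the dotted line is background. All 3 kept probe sets of MBNL2 start at or near background and end far above it, at 285 for the brightest, while the bright lines of MBNL1 and MBNL3 stay level and both CELF2 lines end below their start.

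The sister genes of MBNL2 did not share its course. MBNL1, the main muscleblind gene of most tissues, read 5049, 5399, 5260 and 5612 at days 0, 2, 4 and 6, log2 ratios of 0.10, 0.06 and 0.15. MBNL3 read 1323, 1285, 1215 and 1373, log2 ratios of -0.04, -0.12 and 0.05. At day 6 the log2 ratio of MBNL2 stood 2.79 above that of MBNL1 and 2.89 above that of MBNL3. Not all probe sets of the sisters were level: a dim one of MBNL1, under background at day 0, showed a day 6 fold of at least 2.29, and the 5 kept probe sets of MBNL3 ran between -0.61 and 0.05 on the log2 scale that day.

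CELF2, an RNA-binding regulator that in mammals is active in lymphocytes as well as in brain and heart, was the member furthest below day 0 at day 6. Its scaled signals were 566, 446, 393 and 231 at days 0, 2, 4 and 6, each array lower than the one before, and it was 1.27-fold, 1.44-fold and 2.45-fold lower than day 0. The second kept probe set read 307, 229, 340 and 140, so it was back above its day 0 signal at day 4 and 2.19-fold lower at day 6. Under the alternative scalings, filters, floors and probe set means the day 6 log2 ratio of CELF2 lay between -1.76 and -1.12. CELF1, its widely expressed relative, had log2 ratios of -0.15, -0.15 and -0.20, and its 3 kept probe sets lay between -0.27 and 0.19 at day 6. CELF3, CELF4, CELF5 and CELF6, the other family members, did not pass the filter. CELF3 was below background on all 4 arrays, CELF5 exceeded it at day 2 only by 1 of 2 probe sets, CELF4 had 4 probe sets with no shared pattern and single signals of 35.7 at day 2 and 89.1 at day 6 above background, and CELF6 read 39.2 and 26.5 at days 0 and 2 and was below background at days 4 and 6.

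The hnRNP genes, whose abundant proteins coat new transcripts, lay below day 0 as a family by days 4 and 6, each by a modest amount. Of 13 tested genes 9 were below day 0 at day 2 (51.5% of all tested genes were), 12 at day 4 (49.6%) and 13 at day 6 (50.7%), with median log2 ratios of -0.09, -0.46 and -0.45. None of the 13 reached 2-fold on any day. With spike-in scaling, which moves all genes of an array alike, the count was 9, 10 and 11 (51.1%, 27.2% and 38.9% of all genes). The medians were then -0.09, -0.16 and -0.28, the same sign as with every scaling tried.

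HNRNPD, also called AUF1, which binds AU-rich elements and governs mRNA decay, read 2182, 1901, 1465 and 1376 at days 0, 2, 4 and 6 and was 1.59-fold lower at day 6. Each array was lower than the one before. Its second kept probe set, with signals of 28.8, 40.1, 35.8 and 72.4, went the other way, and the mean of both had a day 6 log2 ratio of 0.33. HNRNPM, a splicing regulator that binds GU-rich sequence, read 2562, 2408, 1756 and 1618, and its 3 kept probe sets were all below day 0 at days 4 and 6. HNRNPH1, a G-run binding repressor or activator of exons with the brightest probe set of the family, read 2936, 2969, 2336 and 2739. That probe set was lowest at day 4 and close to its start again at day 6, with a log2 ratio of -0.10. The second kept probe set of HNRNPH1 did not return, at -0.20, -0.53 and -0.62 at days 2, 4 and 6. HNRNPA1, the best studied exon silencer, had a log2 ratio of 0.31 at day 2 and -0.48 and -0.31 at days 4 and 6 by its brightest probe set. Its 5 kept probe sets disagreed at day 2, with log2 ratios between -0.31 and 0.31, and at day 6, between -0.66 and 0.17. All were below day 0 at day 4, between -0.69 and -0.12.

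The family also holds a sex chromosome pair. HNRNPK is placed on chromosome Z and HNRNPKL on chromosome W in the RefSeq table of assembly GRCg7b. HNRNPKL read 467, 275, 340 and 290 at days 0, 2, 4 and 6, lowest at day 2, while HNRNPK read 2515, 2490, 2204 and 1837. By their brightest probe sets their courses differ at day 2, when the log2 ratio was -0.77 for HNRNPKL and -0.01 for HNRNPK. The 4 kept probe sets of HNRNPKL did not go 1 way. Their log2 ratios lay between -0.77 and 0.62 at day 2, the brightest being the lowest, and between -0.95 and 1.49 at day 6. HNRNPLL, a regulator of exon choice in mammalian lymphocytes, stayed near day 0 by its brightest probe set, at 0.08, 0.07 and -0.08. Its 5 kept probe sets disagreed, with log2 ratios between -0.84 and 0.59 at day 2 and between -0.76 and 0.96 at day 4. At day 6 they lay between -0.20 and 0.10.

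The SR protein genes, which encode the exon-favouring partners of the hnRNPs, had medians nearer to day 0 at days 4 and 6 with the main scaling. At day 2 their median lay further from day 0 than the hnRNP median, on the other side. With spike-in scaling it also lay further at day 4, at 0.23 against -0.16. Of 13 tested genes 1 was below day 0 at day 2 (51.5% of all tested genes were), 9 at day 4 (49.6%) and 11 at day 6 (50.7%). The median log2 ratios were 0.11, -0.07 and -0.15. The sign of these medians follows the scaling, at -0.049 for day 2 in the unscaled values and at 0.23 and 0.019 for days 4 and 6 with spike-in scaling. The hnRNP minus SR difference in median was -0.20, -0.39 and -0.30 log2 units at days 2, 4 and 6, a value that scalings moving all genes of an array alike cannot alter. It was -0.20, -0.35 and -0.23 with quantile normalization and -0.17, -0.29 and -0.14 with the probe sets of each gene averaged, when the day 6 medians were -0.31 for hnRNP and -0.16 for SR genes. With 1 array a day this difference between gene families has no test over samples.

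**Figure D2:**
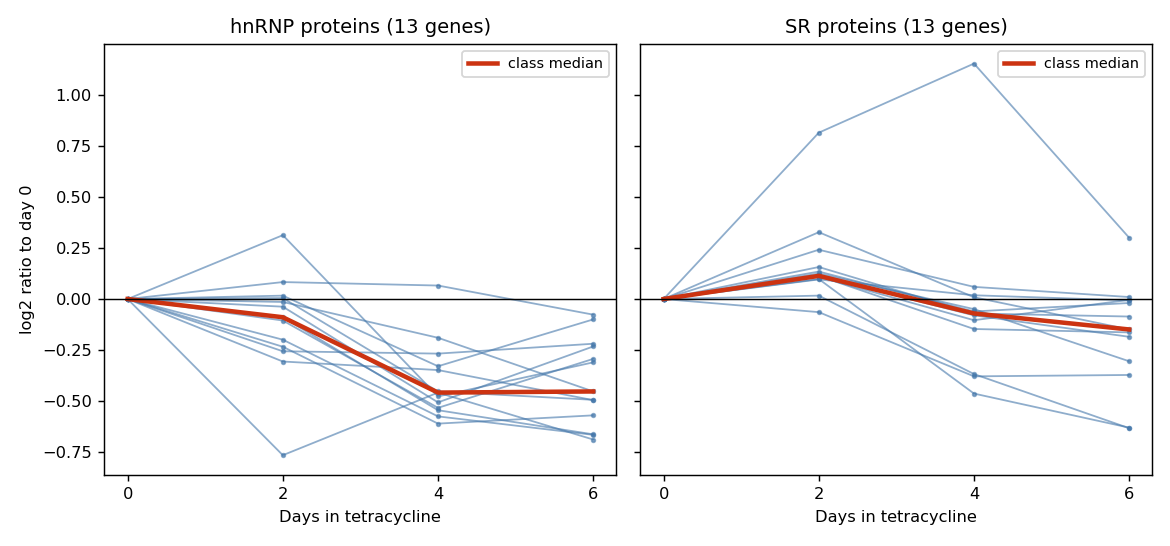
Log2 ratio to day 0 (vertical axis) by days in tetracycline for the 13 tested hnRNP genes (left) and the 13 tested SR protein genes (right). Thin lines are genes by their brightest probe set and the thick line is the median of the family. The hnRNP median stands at -0.46 at day 4 and -0.45 at day 6, the SR median at -0.07 and -0.15, and the single SR line far above the rest is the dim gene SRSF4.

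Within the SR family most of the bright genes stayed near day 0. SRSF7L, the brightest of them, read 3764, 4196, 3584 and 3547 at days 0, 2, 4 and 6. SRSF1, the founding SR protein, had log2 ratios of 0.11, -0.08 and -0.19, and SRSF6 of 0.13, -0.06 and -0.02. SRSF7 and SRSF5, both regulators of exon choice, were lowest at day 6, with log2 ratios of -0.63 each. SRSF5 read 126, 134, 91.0 and 81.1, and its second kept probe set was at -0.05 at day 6. SRSF4 was the family's 2-fold member, with signals of 27.6, 48.6, 61.4 and 34.0: it was 2.23-fold higher at day 4. Its day 6 signal was under background and gives no direction, with a log2 ratio of 0.30 that was -0.17 in the unscaled values and -0.018 with quantile normalization. At day 4 its signal lay below the highest unspiked control of the array, 63.5, and its log2 ratio that day was 0.91 in the unscaled values and 0.95 with quantile normalization, short of 2-fold. The transformer genes TRA2A and TRA2B, which bind GAA-rich exon sequence, stayed between -0.16 and 0.11 on the log2 scale.

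The U2 snRNP and U2AF genes, which recognise the branch point and the 3′ splice site, were near day 0 at day 2 and somewhat below it later. Their 8 tested genes had median log2 ratios of -0.03, -0.28 and -0.33 at days 2, 4 and 6. At days 4 and 6, 7 of 8 were below day 0 (49.6% and 50.7% of all tested genes were). With spike-in scaling the day 4 median was 0.02 and 4 of 8 were below day 0 that day (27.2% of all genes). SF3B1, the largest SF3B subunit and a frequent target of mutation in blood cancers, read 1751, 1713, 1681 and 1336, while its 2 dimmer kept probe sets were above day 0 on each later day, at 0.42 and 1.39 on the log2 scale at day 6. SF3A3 read 1049, 1042, 812 and 704, each array lower than the last, although its 4 kept probe sets lay between -0.58 and 0.01 on the log2 scale at day 6. U2AF1, the small subunit that reads the AG at the intron's end, had log2 ratios of 0.03, -0.04 and -0.21. SF3B5, a small SF3B subunit, was dim, with signals of 52.0, 14.9, 42.2 and 34.9. Its day 2 signal lay under background, a difference from day 0 of at least 2.09-fold, and at day 4 its log2 ratio was -0.30. The 2-fold difference was thus present on 1 array. With the floor at the 60th percentile its day 2 log2 ratio was -0.26.

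Among the 8 tested snRNP protein genes only 1, an Sm ring subunit, reached 2-fold. SNRPD1, the SmD1 protein of the ring around the U1, U2, U4 and U5 RNAs, read 1298, 992, 807 and 601 at days 0, 2, 4 and 6. Each array was lower than the one before, and SNRPD1 was 1.31-fold, 1.61-fold and 2.16-fold lower than day 0. It has 1 probe set, so no second reading exists, and with spike-in scaling its day 6 log2 ratio was -0.94, just short of 2-fold. SNRPD2, the ring partner of SmD1, read 224, 257, 383 and 324, log2 ratios of 0.20, 0.77 and 0.53, and was never below day 0. SNRPD3 and SNRPE, further ring subunits, had day 6 log2 ratios of -0.06 and -0.24. The second kept probe set of SNRPE went the other way, at 0.29, 0.25 and 0.45 at days 2, 4 and 6. SNRPGP15 and SNRPA1 were lower at day 6, at -0.51 and -0.43, though the 3 kept probe sets of SNRPGP15 lay between -0.51 and 0.22. SNRPN, as the annotation names it, had the brightest snRNP probe set here and read 4050, 4465, 4672 and 3863. How it relates to the mammalian gene of that symbol was not checked. Over the 8 tested genes the median log2 ratio was -0.0034, -0.15 and -0.16, and with spike-in scaling it was 0.15 at day 4 and 0.012 at day 6. With the probe sets of each gene averaged it was 0.11, 0.048 and -0.08.

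The PRPF genes encode proteins of the U4/U6.U5 tri-snRNP and of the activated spliceosome. All 8 tested genes were below day 0 at day 6 (50.7% of all tested genes were), and 6 of 8 at days 2 and 4 (51.5% and 49.6%). Their median log2 ratios were -0.04, -0.13 and -0.31 at days 2, 4 and 6. With spike-in scaling the day 4 median was 0.17. With that scaling 2 of 8 were below day 0 at day 4 (27.2% of all genes) and 5 at day 6 (38.9%). PRPF8, the scaffold at the catalytic centre, read 2913, 2607, 2668 and 2357. A second kept probe set of PRPF8 was also below day 0 on each later day, while the third, dim but above background on all arrays, went the other way with signals of 46.1, 139, 213 and 154. PRPF6, which bridges the tri-snRNP, read 959, 716, 666 and 618, lower on each array than the one before, with log2 ratios of -0.42, -0.53 and -0.63. Its second kept probe set did not fall steadily, at 0.28, -0.42 and -0.09. PRPF38B read 165, 152, 99.9 and 156, low on the day 4 array alone. Its second kept probe set was also lowest at day 4, but had been at -0.46 on the log2 scale at day 2 already.

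The LSm genes serve several particles. LSM1 to LSM7 form the cytoplasmic ring that promotes mRNA decay, LSM2 to LSM8 the nuclear ring of the U6 RNA, LSM10 and LSM11 belong to the U7 particle that matures histone mRNA, and LSM12, LSM14A and LSM14B are larger proteins outside the rings. Of 11 tested genes 7, 6 and 9 were below day 0 at days 2, 4 and 6 (51.5%, 49.6% and 50.7% of all tested genes were). The median log2 ratios were -0.17, -0.18 and -0.37. With spike-in scaling the day 4 median was 0.12 and 5 of 11 were below day 0 that day (27.2% of all genes).

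LSM12 read 155, 125, 102 and 74.4 and LSM10 321, 241, 149 and 212 at days 0, 2, 4 and 6. LSM12 was 2.08-fold lower at day 6, lower on each array than the last, and its second kept probe set followed at -0.35, -0.42 and -0.70 on the log2 scale. The day 6 log2 ratio of LSM12 was -0.89 with spike-in scaling, -0.83 with a pseudocount and -0.88 with its probe sets averaged, short of 2-fold. LSM10 was 2.15-fold lower at day 4 and 1.51-fold lower at day 6. Its day 4 log2 ratio was -0.80 with spike-in scaling and -0.97 with a pseudocount, also short of 2-fold. LSM1 and LSM6, ring subunits, stayed under 2-fold with day 6 log2 ratios of -0.84 and -0.86, and both were lower on each array than the one before. LSM3, LSM4, LSM5 and LSM8, from the same rings, were below day 0 by less that day, at -0.36, -0.36, -0.54 and -0.37, and LSM7 was at 0.07. The second kept probe set of LSM7 was at -0.13, -0.21 and -0.49 at days 2, 4 and 6. LSM14B, a relative of the P-body protein LSM14A, stood above day 0 throughout, with log2 ratios of 0.73, 0.64 and 0.37 against 0.09, 0.04 and -0.12 for LSM14A. The second kept probe set of LSM14B was above day 0 on each later day too. The 5 kept probe sets of LSM14A disagreed in direction on each later day. Their log2 ratios lay between -0.37 and 0.85 at day 4 and between -0.54 and 1.83 at day 6. The contrast between LSM14B and LSM14A thus rests on their brightest probe sets.

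The polypyrimidine tract genes are known for an exchange in developing neurons, where PTBP1 gives way to PTBP2. PTBP2 read 136, 151, 171 and 214 at days 0, 2, 4 and 6, higher on each array than the last, with log2 ratios of 0.15, 0.33 and 0.65. Its second kept probe set was at -0.04, 0.06 and 0.69. PTBP1 read 2736, 2912, 2992 and 2494, with log2 ratios of 0.09, 0.13 and -0.13, and -0.08, -0.31 and -0.89 by its second kept probe set. The genes thus stood apart by 0.79 log2 units at day 6 by their brightest probe sets. PTBP3 did not pass the filter, and its 3 probe sets were below background on all arrays apart from 1 signal of 37.2 at day 2. Among the other genes that did not pass, SNRPF was below background throughout, SNRPB2 exceeded it at day 6 only, and the brightest probe set of LSM11 exceeded it at days 0 and 4. The brighter probe set of PRPF4 was below background on all 4 arrays and its other one exceeded it at day 0 only.

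**Figure D3:**
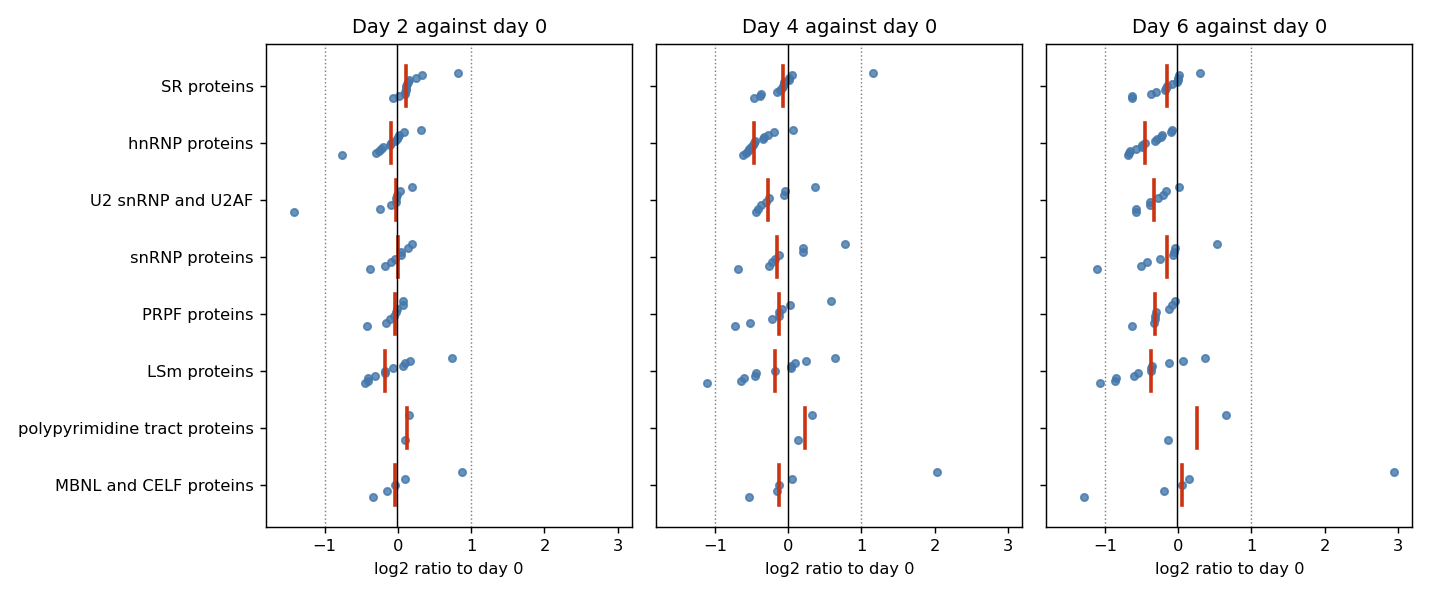
Log2 ratio to day 0 (horizontal axis) at days 2, 4 and 6 for the 68 tested members, grouped by family down the page. Points are genes by their brightest probe set, short upright bars are family medians, the long line is the median of all tested genes and dotted lines mark 2-fold. Most points lie within the dotted lines and, at day 6, left of the long line, and the point at the far right at days 4 and 6 is MBNL2.

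The small shifts ran mostly 1 way. Of the 68 tested members 36 were below day 0 at day 2, 48 at day 4 and 58 at day 6, which is 52.9%, 70.6% and 85.3%, against 51.5%, 49.6% and 50.7% of all tested genes. Above day 0 were 32, 20 and 10 members, against 48.5%, 50.3% and 49.2% of all genes. The median log2 ratio of the members was -0.01, -0.17 and -0.28, against -0.01, 0.0033 and -0.0091 for all tested genes. With spike-in scaling 26 members, 38.2%, were below day 0 at day 4, against 27.2% of all genes, and 42, 61.8%, at day 6, against 38.9% of all genes, and the day 4 median was 0.13, below the 0.30 of all tested genes. In total 33 members, 48.5%, were below day 0 on all 3 later days, against 28.9% of all genes. That count was 57 members (83.8%, against 55.4% of all genes) with the values unscaled and 20 (29.4%, against 16.9%) with spike-in scaling. With the main scaling 17 members, 25.0%, were lower on each array than on the one before, against 10.3% of all genes. The 9 members above day 0 on all 3 later days (27.7% of all genes) were SRSF4 (under background at day 6), SRSF5A, SF3B4, SNRPD2, LSM7, LSM14B, PTBP2, MBNL1 and MBNL2. This goes by the brightest probe sets. The other kept probe sets of SRSF5A, SF3B4, LSM7, PTBP2 and MBNL1 did not all stay above day 0. MBNL2 and PTBP2, 2 of the 68, were higher at each step (9.87% of all genes).

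The members are bright genes, with a median scaled signal of 1291 at day 6 and 1683 at day 0, against 210 at day 6 and 224 at day 0 for all tested genes. Of the 849 tested genes at least as bright as the median member 40.2% were below day 0 at day 6, with a median log2 ratio of 0.08. Of the 34 members among them 31, 91.2%, were below day 0, with a median of -0.23. At day 4 the shares were 73.5% of these members and 39.2% of the bright genes.

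**Figure D4:**
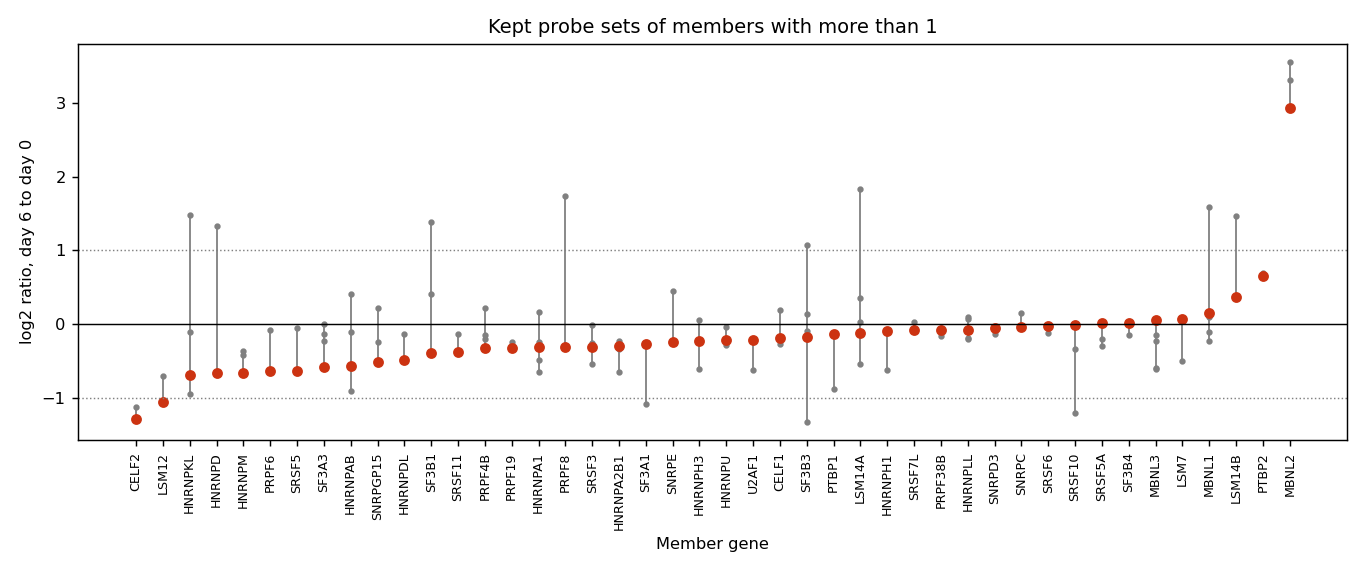
Log2 ratio of day 6 to day 0 (vertical axis) for the 44 tested members with more than 1 kept probe set, in order of the brightest. Large points are the brightest probe set, small points the others, and the grey line spans them. The 3 probe sets of MBNL2 lie between 2.94 and 3.56 and both of CELF2 below -1, while HNRNPKL, SF3B3, LSM14A and PRPF8 span 2.04 to 2.44 log2 units.

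Different probe sets of a member often disagreed. How often they do so over all tested genes was not counted, so this is not read as particular to the members. Of the 44 members with more than 1 kept probe set, 15, 25 and 22 had all of them on 1 side of day 0 at days 2, 4 and 6. The spread between the highest and lowest log2 ratio of a gene had a median of 0.33, 0.45 and 0.55 on those days. Of the 86 kept probe sets that were not the brightest of their gene 15, from 12 genes, left the 2-fold range on at least 1 day, and 5 of these were below background on at least 1 array. The share among such probe sets of all genes was not counted. Counting all 154 kept probe sets of the members, 3, 6 and 11 were 2-fold higher at days 2, 4 and 6, against 3.57%, 7.65% and 10.8% of all kept probe sets, and 3, 2 and 7 were 2-fold lower, against 3.89%, 5.97% and 8.51%. SRSF10, a splicing regulator active in heat shock, had 1 bright reading that differed from its others, 1013, 789, 435 and 441 at days 0, 2, 4 and 6, which is 2.33-fold and 2.30-fold lower at days 4 and 6. The brightest probe set of SRSF10 read 1696, 1813, 1718 and 1688, and the remaining pair lay between -0.33 and 0.19 at days 4 and 6. For SF3A1 the second reading was 598, 477, 438 and 283, 2.11-fold lower at day 6, against 1.21-fold for the brightest. Where these probe sets lie on the transcripts is not given in the sources used here. Of the 68 probe sets used, 25 carry the suffix by which Affymetrix marks probes shared between transcripts and 1 the suffix for possible cross-hybridisation, so signals of close relatives may overlap there.

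A straight line over the 4 days was the 1 test that single arrays allowed. Its error is the scatter of a gene around that line, moderated over all genes, and not replicate error. By limma, with Benjamini-Hochberg adjustment over 8026 genes, 0 members and 0 of all genes passed an adjusted p of 0.05, while at an unadjusted p under 0.05 there were 12 members, 2 upward and 10 downward, of 68, and 1480 of all genes, 18.4%. MBNL2 had the lowest p of the members, with a slope of 0.50 ± 0.036 log2 units a day (SE, 4 arrays) and a limma p of 0.000121, adjusted 0.160. The steepest downward slope was that of CELF2, -0.20 ± 0.045 log2 units a day (limma p 0.00950, adjusted 0.178), followed by SNRPD1 at -0.18 ± 0.034 (limma p 0.00540, adjusted 0.163). The result depends on the filter and on how the spread of a gene is estimated. With the 75th percentile filter, which removes MBNL2, limma called 133 of 5429 genes, 64 upward and 69 downward, and 0 of 65 members. With limma-trend, which lets the spread vary with signal, 604 genes passed, 7.53%, and 11 members: MBNL2 upward, and SNRPD1, LSM6, HNRNPM, CELF2, HNRNPD, SRSF7, LSM1, SNRPGP15, HNRNPDL and HNRNPAB downward. Their limma-trend adjusted p ran from 0.00230 for MBNL2 to 0.0453 for HNRNPAB. The SE of the MBNL2 slope was 0.073 with limma-trend, against 0.036 with limma.

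Splicing genes outside these families were also below day 0 more often than all genes with the same scaling. A list of 111 such genes, among them SR protein kinases, spliceosomal helicases, the SMN complex, the exon junction complex, nonsense-mediated decay factors and other regulators of exon choice, had 70 tested genes with median log2 ratios of -0.04, -0.11 and -0.15 at days 2, 4 and 6. Of the 70 genes 44, 51 and 48 were below day 0, which is 62.9%, 72.9% and 68.6%, against 52.9%, 70.6% and 85.3% of the 68 members and 51.5%, 49.6% and 50.7% of all tested genes. With spike-in scaling the medians of the 70 genes were -0.03, 0.19 and 0.015. None was 2-fold higher on any day (2.42%, 5.77% and 8.48% of all genes were), and 1, 2 and 4 were 2-fold lower (2.97%, 5.12% and 8.35% of all genes). Of the 4 at day 6, CWC27 and CRNKL1 were measured above background, while GEMIN5 and GEMIN6 were under it with bounds short of 2-fold. CWC27, a cyclophilin of the spliceosome, read 133, 78.8, 59.4 and 49.8, with a fold of 2.24 at day 4 and 2.68 at day 6 below day 0. Its signals at days 4 and 6 lay below the highest unspiked control of those arrays, 63.5 and 73.3, so these folds rest on dim values. CRNKL1, a structural protein of the spliceosome, read 445, 261, 227 and 208 and was 2.14-fold lower at day 6. CWC27 and CRNKL1 were both lower on each array than the one before. GEMIN5, which brings small nuclear RNAs to the SMN complex, read 66.9 at day 0 and lay under background afterwards, a difference of at least 2.69-fold at day 2, 2.08-fold at day 4 and 1.46-fold at day 6. GEMIN6 of the same complex read 58.5, 89.8, 86.4 and 6.97, under background at day 6, a difference there of at least 1.27-fold.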

How the data were processed

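The authors deposited linear intensity values, 1 for each of 38535 probe sets on every array. Per the series' design text they came from GeneChip Operating Software. Its signal algorithm and scaling are not stated in the sources used here. Without the 96 controls, the 16658 probe sets whose mean log2 reached that of the median value (29.1) were kept, and every array was scaled to 1 median over them. Signals under the 40th percentile (19.4) were raised to it before ratios. A dimmer signal below background makes a fold a lower bound. Of the other probe sets 27168 had 1 symbol in the platform annotation, 177 had several (4 of these with a member, not used) and 11094 were unnamed. All 77 member symbols matched the RefSeq table of GRCg7b. Sequences were not used here.

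Counts use a 2-fold threshold. The trend used limma 3.58.1 in R 4.3.3 (2-sided) and was tested on simulated data. Other steps used Python 3.11.15, numpy 2.4.6, pandas 2.3.3 and matplotlib 3.10.9. The members, lists and rules were chosen with earlier results of these data known. Named were all 2-fold members, all MBNL and CELF genes, the brightest gene and the pair with the largest mean ratio of each family, and 2-fold genes of the wider list; others were chosen after their values were seen. Alternatives covered scaling, filter, floor, probe set choice, threshold and trend model.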

Additional observations from a re-analysis of the deposited data

How the results depend on the processing

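No paired analysis was possible because each day has 1 array. Counts are small, so single genes move them, and counts over all genes move with the same settings. Members 2-fold higher at day 2 numbered 1 with probe sets averaged per gene (2.19% of all genes) and 3 at 1.5-fold (7.53%), against 0 (2.42%). At day 4 they numbered 1 with unscaled values (3.56% of all genes), quantile normalization (4.83%), the 60th percentile floor (3.11%), a pseudocount (2.29%) or a 3-fold threshold (1.71%). That day they numbered 0 with the 75th percentile filter (2.25%), which removes MBNL2, and 5 at 1.5-fold (14.3%), against 2 (5.77%). At day 6 they numbered 2 without the filter (9.82% of all genes) or at 1.5-fold (17.4%) and 0 with the 75th percentile filter (4.22%), against 1 (8.48%). Members 2-fold lower at day 2 numbered 0 with the 75th percentile filter (0.442% of all genes), the 60th percentile floor (1.01%), a pseudocount (0.723%) or 3-fold (0.486%). That day they numbered 2 at 1.5-fold (9.46%), against 1 (2.97%). At day 4 they numbered 0 with spike-in scaling (2.64% of all genes), a pseudocount (2.40%) or 3-fold (1.42%). That day they numbered 2 without the filter (4.75%) and 6 at 1.5-fold (13.8%), against 1 (5.12%). At day 6 they numbered 16 unscaled (23.5%, against 20.0% of all genes), 1 with spike-in scaling (1.47%, against 6.37%), 0 at 3-fold (3.40% of all genes) and 12 at 1.5-fold (17.6%, against 18.1%), against 3. Unscaled, 59 members (86.8%, against 71.3% of all genes) were below day 0 at day 2. The unscaled medians were -0.17, -0.41 and -0.75 at days 2, 4 and 6, against -0.17, -0.24 and -0.48 for all genes. Of the 44 members with more than 1 kept probe set, 36 had all of them on 1 side at day 6 unscaled, against 22 with the main scaling. That share over all genes was not counted. With spike-in scaling 26 members (38.2%, against 27.2% of all genes) were below day 0 at day 4 and the medians were 0.13 and -0.11 at days 4 and 6. With 75th percentile scaling the day 2 median was 0.0096. The SR median was -0.049 at day 2 unscaled and 0.23 and 0.019 at days 4 and 6 with spike-in scaling. These scalings move all genes of an array together. The trend called 11 members with limma-trend and 0 with each array left out in turn and under the other alternatives. The log2 ratio of MBNL2 stayed between 2.25 and 3.27 at day 6 under the alternatives that kept it. Dim signals limit SF3B5, SRSF4 and the MBNL2 starting value.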
